A study of Mus musculus with 6 samples.

Results

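The 10 genes described here encode transcription factors that mark mesenchymal cells: the basic helix-loop-helix proteins Twist1, Twist2 and Tcf21, the paired-related homeobox protein Prrx1, the T-box proteins Tbx15 and Tbx18, and the zinc finger proteins Snai1, Snai2, Zeb1 and Zeb2. They were chosen by symbol, and all 10 were found among the 23337 genes of the count tables. The libraries came from stromal fibroblasts of the mouse mammary gland, 3 from homozygous Sharpin-cpdm mice and 3 from wild-type mice of the same C57BL/KaLawRij strain. The cpdm mutation leaves the mice without SHARPIN, a protein that joins linear ubiquitin chain assembly and also holds integrins inactive. Every library came from mice aged 7 weeks, with the glands of 3 mice pooled, and from primary cells at passage 0 that were grown to confluence in medium with serum. The cultures are therefore enriched by plating and not sorted, and Sharpin is missing from all cells of the mutant animals rather than from fibroblasts alone. The comparison asks whether the transcription factors that define the fibroblast lineage differ when SHARPIN is missing.

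Twist, Snail and Zeb proteins are best known for repressing epithelial genes such as Cdh1 (E-cadherin) during the epithelial-mesenchymal transition, in which they bind E-box sequences, and fibroblasts express them as part of their resting identity. Prrx1, Tcf21, Tbx15 and Tbx18 are lineage factors of embryonic mesenchyme that persist in the fibroblasts of particular organs and body regions, and Tbx18 also marks pericytes and other mural cells. Their levels are therefore often read as a statement of where a fibroblast comes from and how firmly it holds that identity.

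Sharpin, the check of the labels, stood at 10.5, 9.13 and 9.5 CPM (counts-per-million of all gene counts in the library) in the mutant (Sharpin-cpdm) libraries 1 to 3, against 24.5, 25.2 and 31.2 CPM in wild types 1 to 3. It was lower in every mutant library, and the groups did not overlap. The log2 fold change was -1.49 ± 0.14 with adjusted p 0.272 when edgeR compared the genotypes alone, and -1.48 ± 0.12 with adjusted p 0.00598 when the replicate number was a block (± SE). Libraries held between 13570649 and 15656196 gene counts. Of the 18 fibroblast markers listed, 18 were detected and tested. With the block, 7 of the 18 were lower in the mutant and 0 higher at an adjusted p under 0.05 (edgeR). Of all tested genes, 2.11% were lower and 0.394% higher by that measure. The median log2 fold change of the 18 was -0.29, with 4 above 0, and without the block 0 passed. Endothelial, mural, myeloid, Schwann cell and epithelial markers were detected as well, so the cultures held RNA typical of other cells of the gland. In such bulk samples, fewer cells of a type and less RNA per cell cannot be told apart.

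The cultures expressed 9 of the 10 factors at 24.3 CPM or more in every library, and none of these 9 passed the test between genotypes. In edgeR's quasi-likelihood test of genotype alone, with Benjamini-Hochberg adjustment over all 13442 tested genes, 0 of the 9 were called, and 0 had an unadjusted p under 0.05. DESeq2 and limma-voom called 0 of them as well. The same test called 0% of all tested genes, and 2.28% had an unadjusted p under 0.05, so the whole table gave no call at this spread between cultures. Same-numbered libraries of the genotypes deviated together, and with the replicate number as a block the test called 2.51% of all tested genes but still 0 of the 9. The median log2 fold change of the 9 was -0.06 in both fits, beside -0.0026 for all tested genes without the block.

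How large a difference remained possible is given by the 95% intervals. Without the block, they reached at most 0.65 to either side of the log2 fold change, and for Snai1, the widest, they ran from -0.77 to 0.53. With the block the widest reached 0.19 to either side. For Twist1, which had the largest difference, the interval without the block ended at -0.65, which is a level of 0.639 times that of wild type. With the block it ended at -0.48, or 0.717 times, but the pairing behind the block was taken from these same counts. These intervals cover the 9 tested factors and not Tcf21.

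**Figure D1:**
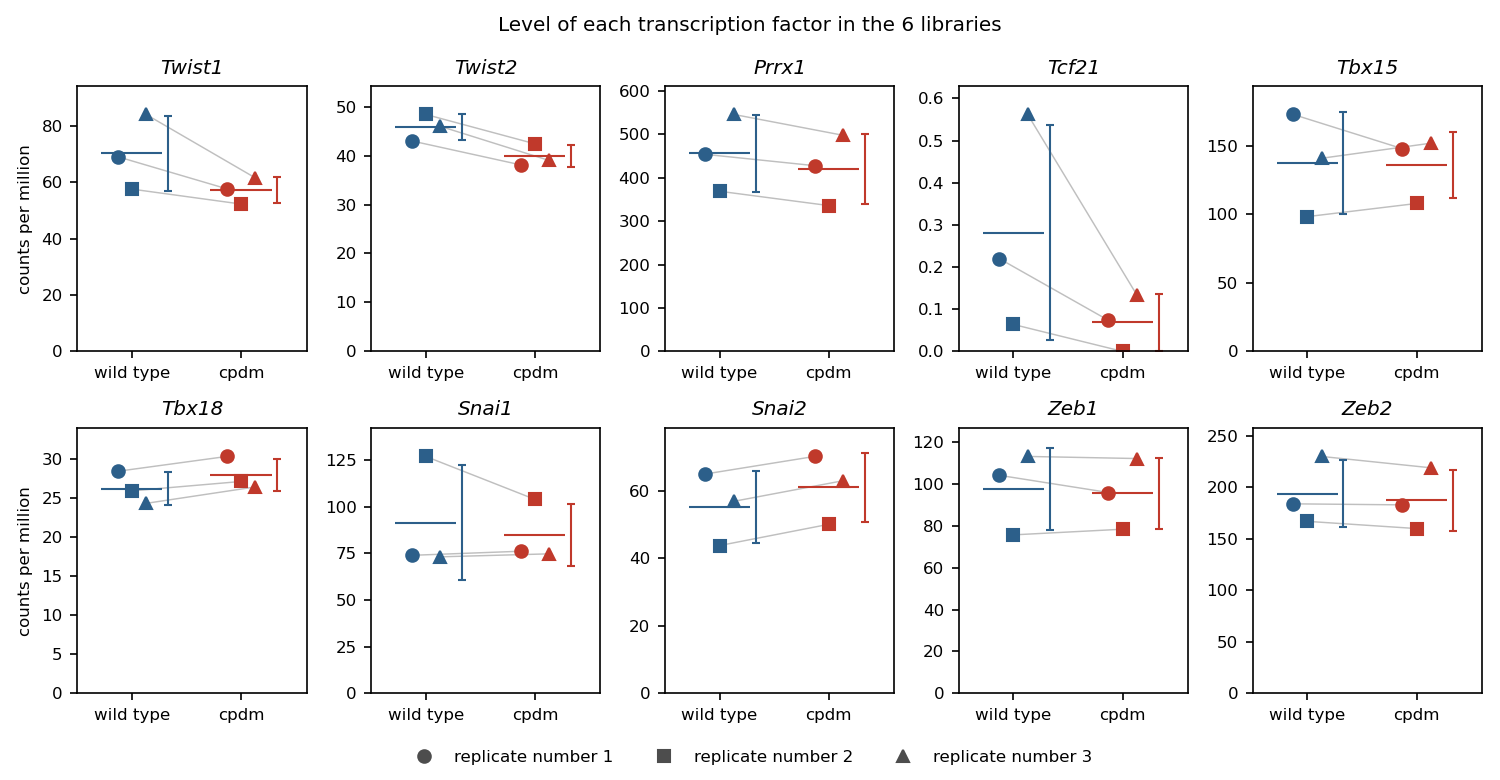
Each panel plots the CPM of a factor (y axis, from 0) in the 3 wild-type (blue) and 3 Sharpin-cpdm (red) libraries. Symbols give the replicate number, grey lines join same-numbered libraries, horizontal lines are means and bars are SD (n = 3). Groups overlap for every tested factor but Twist2, and Tcf21 lies below 0.6 CPM throughout.

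The Twist genes showed the largest differences of the tested factors, both toward lower levels in the mutant. TWIST1 and TWIST2 are close relatives that pair with E proteins and act in the development of head and limb mesenchyme and of dermis. Twist1 (chromosome 12, 33957671 to 33959829, plus strand, mm10) stood at 57.7, 52.3 and 61.6 CPM in mutants 1 to 3, against 69.1, 57.6 and 84.1 CPM in wild types 1 to 3. Mutants 1 and 3 lay above the lowest wild-type value, so that the groups overlapped. Its log2 fold change was -0.31 ± 0.14 (± is the SE, with 3 libraries a group) and had a 95% interval from -0.65 to 0.03 and p 0.9999 after adjustment (edgeR). With the replicate block it was -0.30 ± 0.07, with p 0.116 after adjustment (edgeR). The log2 ratio of mutant to wild type was -0.26, -0.14 and -0.45 in numbers 1 to 3, so that the third pair carried the largest difference.

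Twist2 (chromosome 1, 91801461 to 91848028, plus strand) was the 1 tested factor whose groups did not overlap. It stood at 38.1, 42.4 and 39 CPM in mutants 1 to 3, against 43, 48.4 and 46 CPM in wild types 1 to 3. Non-overlapping groups were found for 5.94% of all tested genes. The log2 fold change was -0.21 ± 0.10 with p 0.9999 after adjustment (edgeR), and -0.21 ± 0.05 with p 0.116 after adjustment with the block. The ratio was even over the pairs, at -0.18, -0.19 and -0.24 on the log2 scale. An antisense gene overlaps Twist2, and reads of the strands are not separated by the library kit.

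The stretches of 150 bases before the start sites of both Twist genes are shown because these genes had the largest differences; they are from RefSeq (GRCm38.p6), both on the plus strand, at chr12:33957521-33957670 and chr1:91801311-91801460. Capitals mark the CCAAT box (CCAAT or, on the other strand, ATTGG), a promoter element bound by NF-Y.
Twist1: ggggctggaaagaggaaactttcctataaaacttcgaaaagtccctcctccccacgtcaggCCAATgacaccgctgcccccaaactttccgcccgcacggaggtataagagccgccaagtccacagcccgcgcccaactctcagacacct
Twist2: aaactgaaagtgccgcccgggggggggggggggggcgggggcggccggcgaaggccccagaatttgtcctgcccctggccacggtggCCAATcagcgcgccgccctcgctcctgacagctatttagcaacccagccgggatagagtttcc
The box begins 89 bases before the start of Twist1 and 63 bases before that of Twist2. Of the 7 factors matched in the promoter table and looked at, 5 had this motif in the window (Twist1, Twist2, Tbx18, Snai1 and Zeb2), beside 24.5% of all 32851 windows of the same length. Twist1 alone of the 7 also held TATAAA (or TTTATA), which 7.57% of all windows hold. These matches describe letters and do not show binding. A factor counted if any of its listed start sites had the motif, while the shares are of single windows, which are unlike units.

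Beside the Twist values, 7 of the 18 fibroblast markers and markers of some other cell types were lower in the mutant libraries too. Of 19 endothelial markers, 16 fell and 0 rose with the block, where 2.11% of all tested genes fell and 0.394% rose. The blocked fit called 17, 8 and 1 of them without the libraries numbered 1, 2 and 3. Their summed level was between 622 and 913 CPM in Sharpin-cpdm and between 820 and 1451 CPM in wild type, and 0 of the 19 were at 0 in every library. Of 14 tested pericyte and mural markers 3 fell, Abcc9, Notch3 and Mcam, with sums of 1064 to 1197 CPM in the mutant and 1239 to 1472 CPM in wild type. Of the mural markers, 8, 1 and 0 were called without the libraries numbered 1, 2 and 3. The part of these cells in the Twist values was not tested.

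Prrx1 (chromosome 1, 163245119 to 163313710, minus strand) had the most counts of the family, 35.1% to 41.5% of the summed CPM of the 10 genes. PRRX1 is a homeobox factor of limb and craniofacial mesenchyme that is also used as a marker of stromal fibroblasts. It stood at 428, 336 and 498 CPM in mutants 1 to 3, against 454, 369 and 546 CPM in wild types 1 to 3. Within each number the mutant was slightly lower, with log2 ratios of -0.08, -0.13 and -0.13, while the numbers themselves spread far more widely. The log2 fold change was -0.13 ± 0.18, and -0.13 ± 0.04 with the block, with p after adjustment (edgeR) at 0.9999 and 0.198.

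Tcf21 (chromosome 10, 22817281 to 22820174, minus strand) was barely detected. TCF21 is a factor of visceral mesenchyme and of fibroblasts of the heart, kidney and lung. Over the 6 libraries 15 counts were assigned to it, 1, 0 and 2 in mutants 1 to 3, against 3, 1 and 8 in wild types 1 to 3. The 0 counts in Sharpin-cpdm library 2 allow a level of up to 0.217 CPM, taking 3 counts as the limit. The filter on low counts removed it from the test. The ratio of summed counts per library size was 0.257, with an exact 95% interval from 0.0466 to 0.953 that covers counting error only. With the filter lifted, its adjusted p was 0.9998 without the block and 0.435 with it in edgeR's test. An antisense gene overlaps Tcf21 as well.

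The T-box genes did not differ beyond the spread between cultures. TBX15 acts in the mesenchyme of skin, limb and skeleton and in fat depots, and TBX18 in mural cells, the epicardium and the ureter. Tbx15 (chromosome 3, 99240381 to 99354259, plus strand) stood at 148, 108 and 152 CPM in mutants 1 to 3, against 173, 98.4 and 141 CPM in wild types 1 to 3. The libraries numbered 2 were the lowest in both genotypes, and the pairs went both ways. Its log2 fold change was -0.03 ± 0.21, and -0.01 ± 0.08 with the block (adjusted p 0.976 in edgeR's test). Tbx18 (chromosome 9, 87702800 to 87731260, minus strand) was among the steadiest, at 30.3, 27.1 and 26.4 CPM in mutants 1 to 3, against 28.4, 25.9 and 24.3 CPM in wild types 1 to 3. It was higher in the mutant in every pair, by 0.07 to 0.12 on the log2 scale, with a log2 fold change of 0.08 ± 0.11, and 0.08 ± 0.06 with the block, and p after adjustment (edgeR) at 0.9999 and 0.559. Its interval with the block ran from -0.07 to 0.23. Mural markers beside it had a median log2 fold change of -0.34 with the block.

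The Snail genes went in opposite directions, neither past the test. SNAI1 is a short-lived repressor induced by growth factors and injury, and SNAI2 (Slug) is its longer-lived relative in neural crest and mesenchyme. Snai1 (chromosome 2, 167538195 to 167542814, plus strand) stood at 76.2, 104 and 74.8 CPM in mutants 1 to 3, against 74, 127 and 73.2 CPM in wild types 1 to 3. The libraries numbered 2 stood above all others, and the other 4 lay between 73.2 and 76.2 CPM. Its log2 fold change was -0.12 ± 0.27, and -0.09 ± 0.07 with the block (adjusted p 0.578 in edgeR's test). The difference lay in number 2, where the log2 ratio was -0.30, beside 0.04 and 0.03 in numbers 1 and 3, and without the libraries numbered 2 the blocked log2 fold change was 0.01. Snai2 (chromosome 16, 14705852 to 14709385, plus strand) stood at 70.2, 50.1 and 63 CPM in mutants 1 to 3, against 65, 43.8 and 56.9 CPM in wild types 1 to 3. It was higher in the mutant in all 3 pairs, at 0.11, 0.19 and 0.15 on the log2 scale, with a log2 fold change of 0.13 ± 0.17, and 0.14 ± 0.05 with the block, and p after adjustment (edgeR) at 0.9999 and 0.236.

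The 150 bases before the start of Snai1 (RefSeq, GRCm38.p6, plus strand, chr2:167538045-167538194) are shown because this gene stood out in the libraries numbered 2 and because SNAI1 is known to act on its own promoter through an E-box. Capitals mark the E2 box CAGGTG, here read on the other strand as CACCTG, and the CCAAT box, read as ATTGG.
Snai1: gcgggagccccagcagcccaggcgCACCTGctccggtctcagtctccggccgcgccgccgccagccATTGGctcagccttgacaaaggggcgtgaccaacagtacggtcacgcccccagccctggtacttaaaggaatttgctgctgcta
The E2 box begins 126 bases and the CCAAT box 84 bases before the start. With factors counted as above, Snai1 was the 1 of the 7 with CAGGTG or CACCTG in this window, which 10.6% of all single windows hold.

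The Zeb genes were the least changed in the blocked fit together with Tbx15. ZEB1 and ZEB2 are large repressors with zinc finger clusters at either end and a homeodomain between them, and the miR-200 family holds them down in epithelial cells. Zeb1 (chromosome 18, 5591860 to 5775467, plus strand) stood at 95.8, 78.3 and 112 CPM in mutants 1 to 3, against 104, 75.6 and 113 CPM in wild types 1 to 3. Its log2 fold change was -0.05 ± 0.17, and -0.04 ± 0.05 with the block (adjusted p 0.721 in edgeR's test). Zeb2 (chromosome 2, 44983632 to 45117395, minus strand) stood at 183, 160 and 219 CPM in mutants 1 to 3, against 184, 167 and 230 CPM in wild types 1 to 3. It had a log2 fold change of -0.06 ± 0.15, and of -0.06 ± 0.04 with the block (adjusted p 0.541 in edgeR's test). Zeb2 is also expressed by macrophages and Schwann cells, whose markers were present, and its antisense gene Zeb2os overlaps it, as antisense genes do Prrx1 and Tbx15.

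**Figure D2:**
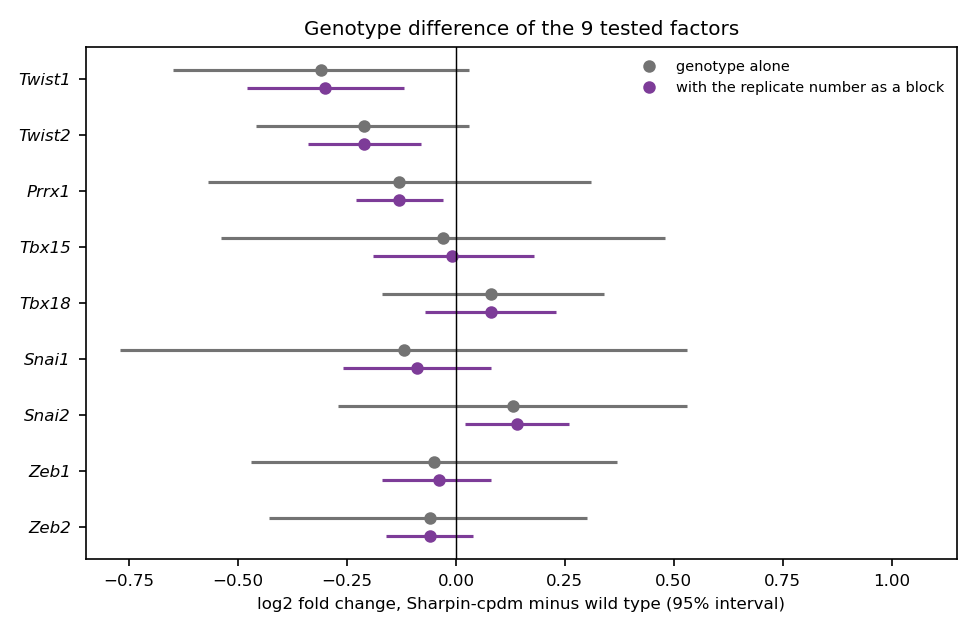
Points are log2 fold changes of the 9 tested factors (Sharpin-cpdm minus wild type) and lines their 95% intervals, without the block (grey) and with it (purple). Every grey interval crosses 0, whereas the purple ones of Twist1, Twist2, Prrx1 and Snai2 do not, although 0 of the 9 passed after adjustment.

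Without adjustment, 4 of the 9 had a p under 0.05 with the block, Twist1, Twist2 and Prrx1 toward lower and Snai2 toward higher levels, beside 17.3% of all tested genes. Over the same-numbered pairs 4 of the 9 were lower in the mutant every time, Twist1, Twist2, Prrx1 and Zeb2, where 18.4% of all tested genes were. Tbx18 and Snai2 were higher every time, where 22.7% of all tested genes were, and 3 went both ways. The summed CPM of the 10 genes in the mutant was 0.943, 0.946 and 0.947 times that of the same-numbered wild-type library, a sum in which Prrx1 weighs most.

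The range between the numbers was larger than the mean genotype difference for 8 of the 9 tested factors, Twist2 being the exception. The same holds for 90.2% of all tested genes. A range over 3 numbers is here set against an averaged difference, which favours the numbers. Prrx1, Zeb1, Zeb2 and Twist1 shared an order, highest in number 3 and lowest in number 2 in both genotypes. The geometric mean over genotypes ran from 352 to 521 CPM for Prrx1, from 76.9 to 112 CPM for Zeb1, from 164 to 224 CPM for Zeb2 and from 54.9 to 72 CPM for Twist1. Snai2 and Tbx15 were likewise lowest in number 2, but their geometric means were highest in number 1. Those means ran from 46.8 to 67.6 CPM for Snai2 and from 103 to 160 CPM for Tbx15. For Tbx15, number 1 was highest in wild type and number 3 in the mutant.

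Snai1 and Twist2 stood against these, with their highest level in number 2. Snai1 reached 115 CPM there, beside 75.1 and 74 CPM in numbers 1 and 3. The order of the numbers was the same in mutant and wild type for 8 of the 9, all but Tbx15, beside 47.2% of all tested genes. The range between numbers had a median of 0.53 on the log2 scale over the 9 and of 0.35 over all tested genes. The labels do not say what a number stands for, and these values are a description with no test.

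**Figure D3:**
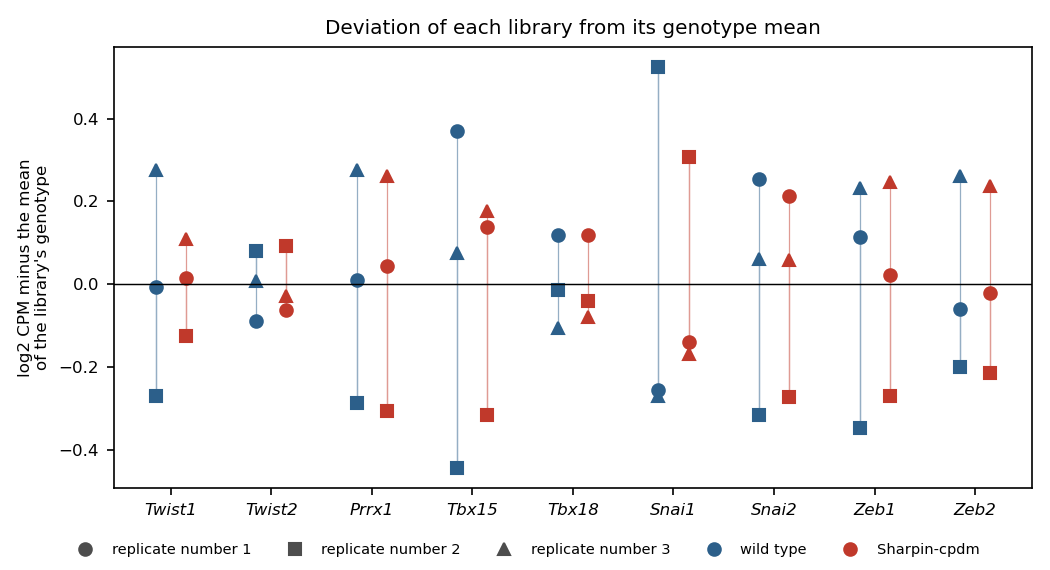
Each point is a library's log2 CPM minus the mean of its genotype (blue wild type, red Sharpin-cpdm), with symbols for the replicate number. Squares, number 2, are lowest for Twist1, Prrx1, Tbx15, Snai2, Zeb1 and Zeb2 and highest for Twist2 and Snai1 in both genotypes.

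Marker levels of other cell types moved with the number as well. The 16 myeloid markers summed to 454 and 536 CPM in the Sharpin-cpdm and wild-type libraries numbered 2, against 92.3 to 289 CPM in the other 4 libraries. Of those sums in number 2, Lyz2 alone made 263 and 295 CPM. The 18 fibroblast markers summed to 66488 and 69671 CPM in number 2 and to between 78351 and 92802 CPM in the others. Col1a1, Col1a2 and Col3a1 weigh most in the fibroblast sum, and Col3a1 alone ranged from 13708 to 34733 CPM over the libraries. The part of these cell types in the order of the factors was not tested.

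Divided by the length of annotated exons, Snai1, Prrx1, Tbx15 and Twist1 stood highest. Medians over the 6 libraries were 46.6 CPM per kilobase for Snai1, 39.9 for Prrx1, 38.5 for Tbx15 and 36.6 for Twist1, with 29.7 for Snai2. The ranges of neighbours in this order overlapped over the 6 libraries. Within every library, however, Snai1, Prrx1, Tbx15 and Twist1 all lay above Snai2. Twist2 followed at 13.5 CPM per kilobase, from 12 to 15.3 CPM per kilobase and apart from Snai2, whose lowest value was 21.7 CPM per kilobase. Zeb1 at 9.74 and Zeb2 at 9.21 CPM per kilobase overlapped each other, and Tbx18 at 5.67 lay below both. Tcf21 came last at 0.0442. With the length of the longest transcript in place of all exons, Prrx1 came first with 67.6, Zeb2 and Zeb1 both passed Twist2, with 20.1 and 17.2 against 16.9 CPM per kilobase, and Zeb2 passed Zeb1. The exons of Prrx1 span 11066 bases against 6527 in its longest transcript, and those of Zeb2 19942 against 9124.

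**Figure D4:**
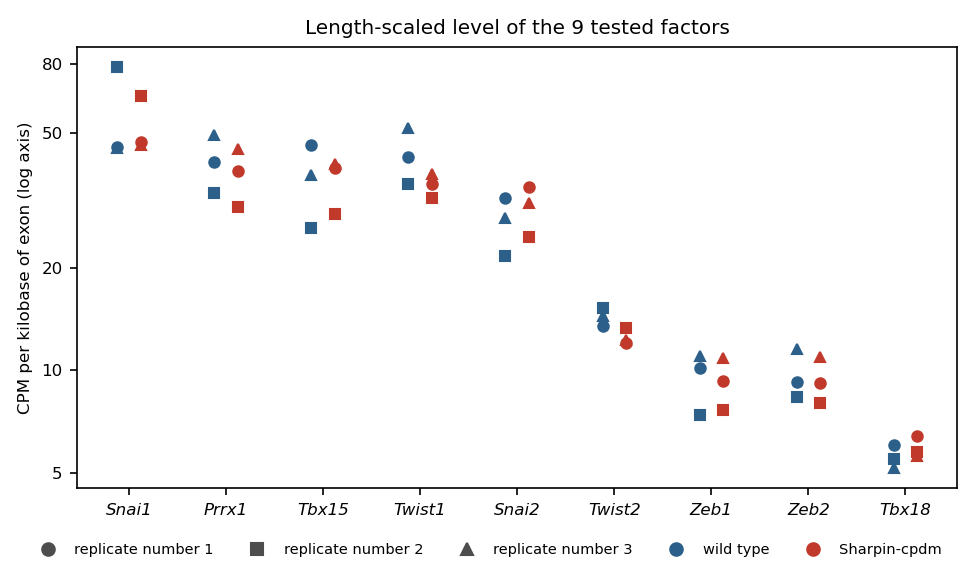
CPM per kilobase of exon on a log axis for the 9 tested factors in each library, ordered by the median. Neighbours among the first 5 genes overlap, and Tbx18 lies below all others at 5.14 to 6.42.

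Within the related pairs of genes, the balance was steady for Zeb and shifted for Snail. The ratio of Zeb2 to Zeb1 per kilobase was between 0.91 and 1.14 in all 6 libraries. That of Snai1 to Snai2 was 2.58 and 3.62 in the Sharpin-cpdm and wild-type libraries numbered 2, and between 1.35 and 1.6 in the other 4. Twist1 stood at 2.32 to 3.57 times Twist2 and Tbx15 at 4.79 to 7.67 times Tbx18, both with the smallest ratios in number 2. All 4 ratios overlapped between the genotypes.

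Genes of proteins that work with these factors showed no call in either fit of all 6 libraries. The 21 tested partners and regulators hold the E proteins that pair with Twist and Tcf21, the Id proteins that sequester them, the corepressors of Snail and Zeb and the enzymes that mark SNAI1 for destruction. With and without the block, edgeR called 0 of 21 in either direction (4 and 1 had an unadjusted p under 0.05), 11 had a log2 fold change above 0, and the median was 0.01. The blocked fit called 1 of them without the libraries numbered 1, 1 with no filter on low counts and 1 with no TMM factors. Tcf4, an E protein and the member with the highest mean, stood at a mean ± SD of 235 ± 28.5 CPM over the 3 mutants and 279 ± 41.1 CPM over the 3 wild types. Its log2 fold change was -0.26 ± 0.13, and -0.26 ± 0.05 with the block, with p after adjustment (edgeR) at 0.9999 and 0.0549. The corepressor gene Ctbp1 stood at 211 ± 13.6 and 204 ± 23 CPM (adjusted p 0.687 in the same test).

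Of 36 other tested transcription factors of mesenchyme, 1 fell and 0 rose with the block, beside 2.11% of all tested genes that fell, and the median was -0.03. The blocked count was 4, 1 and 0 without the libraries numbered 1, 2 and 3, 3 with no filter and 2 with no TMM factors. The gene called was Osr2, an odd-skipped related zinc finger factor of palate, limb and joint mesenchyme. It stood at 11.9, 3.91 and 27.7 CPM in mutants 1 to 3, against 24.3, 7.6 and 64.1 CPM in wild types 1 to 3. Values varied widely between numbers, and in each number the mutant stood below the wild type. The log2 fold change was -1.12 ± 0.09 with p 0.00598 after adjustment (edgeR, blocked), and -1.16 ± 0.88 with p 0.9999 after adjustment without it. Prrx2, the relative of Prrx1 and named after its values were seen, had -0.29 ± 0.08 with p 0.133 after adjustment (edgeR, blocked).

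The epithelial genes that Snail, Zeb and Twist proteins are known to repress were not called with all 6 libraries. In the blocked fit without the libraries numbered 1, 10 were called, where that fit called 653 genes over the whole table. The direction of those 10 is not given here. Of 25 listed, 21 were tested, edgeR called 0 in either direction in both fits, and 1 with and 0 without the block had an unadjusted p under 0.05. The median log2 fold change was -0.36 with the block, with 2 above 0. Their summed level was 264 to 577 CPM in Sharpin-cpdm and 398 to 723 CPM in wild type. Krt18 and Krt8, keratins of simple epithelium, stood at 75.3 ± 31 and 76 ± 33 CPM in Sharpin-cpdm and at 104 ± 26.5 and 92.5 ± 33.3 CPM in wild type, overlapping in both cases. Cdh1 itself, named after its values were seen, ranged from 16.7 to 45 CPM over the 6 libraries. Its log2 fold change was -0.38 ± 0.25 with p 0.5 after adjustment (edgeR, blocked).

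Of 24 genes of the mesenchymal programme 2 fell with the block and 0 rose, where 2.11% of all tested genes fell and 0.394% rose. The median was 0.04. The blocked count was 5, 0 and 1 without the libraries numbered 1, 2 and 3, 5 with no filter and 3 with no TMM factors. Mmp2, a gelatinase, had a log2 fold change of -0.67 ± 0.53, and -0.60 ± 0.08 with the block, with p after adjustment (edgeR) at 0.9999 and 0.0216. Fap, a serine protease of activated fibroblasts that is also among the fibroblast markers, had groups that did not overlap, at 77.4 ± 7.12 CPM for the mutant and 97.8 ± 8.73 CPM for the wild type, and a log2 fold change of -0.35 ± 0.11, or -0.35 ± 0.05 with the block, with p after adjustment (edgeR) at 0.9999 and 0.026. Without the block 0 genes of this list were called. The summed level of the list was 114301 to 114405 CPM in the mutant and 115179 to 120091 CPM in wild type, without overlap. Col1a1, Col1a2 and Col3a1 weigh most in this sum, with mean levels of 22179, 19863 and 22148 CPM. Their log2 fold changes with the block were -0.03 ± 0.05, 0.02 ± 0.05 and -0.39 ± 0.08. Fn1, Sparc and Postn came next by level, at 0.32 ± 0.07, -0.10 ± 0.05 and 0.25 ± 0.05, so the heavy terms went different ways. Over the list, 14 of the 24 genes had a log2 fold change above 0.

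**Figure D5:**
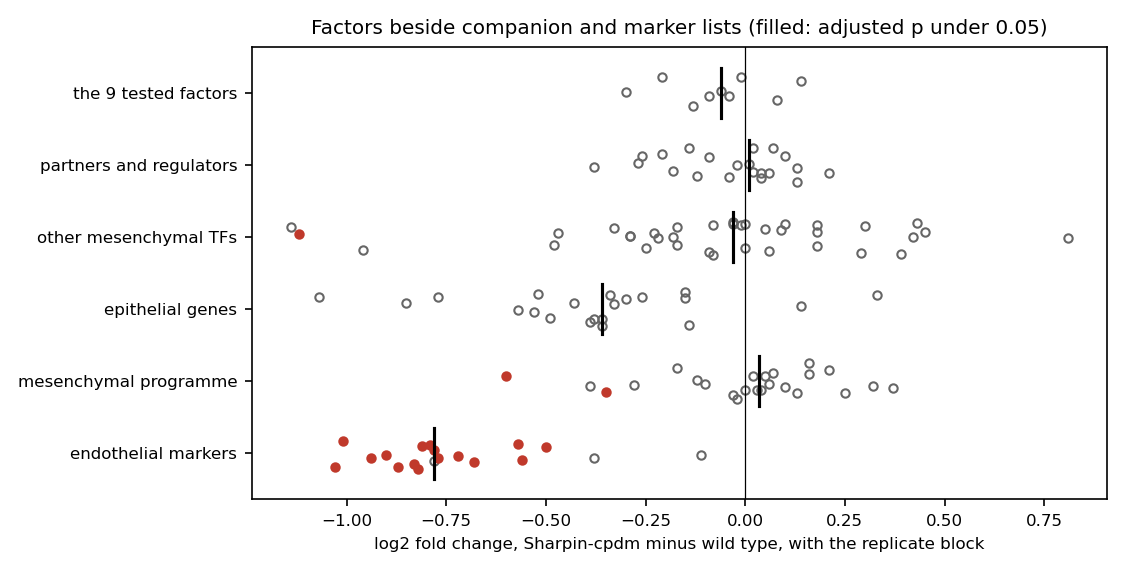
Log2 fold changes with the replicate block for the tested genes of each list (points, filled where the adjusted p is under 0.05) with the list's median (bar). The 9 factors lie between -0.30 and 0.14 with 0 filled points, beside 16 of 19 for the endothelial markers.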

How the data were processed

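The authors deposited 1 table of whole-number counts per gene symbol for each of the 6 libraries. The submitters' processing notes name TopHat2 2.0.10, HTSeq 0.5.4p3, bcl2fastq 1.8.4 and mm10, with no roles; annotation and strand settings are not given in the sources used here. Left out were the 5 summary rows (48.8% to 51.2% of a table's counts). CPM printed here divides by all gene counts. Genes were tested on the whole table in edgeR 4.0.16 (R 4.3.3) with filterByExpr, TMM factors of 0.969 to 1.03 and the quasi-likelihood F-test, two-sided, at an adjusted p of 0.05; 13442 genes passed the filter. SE is the size of the log2 fold change over the square root of F. DESeq2 1.42.0 and limma 3.58.1 (voom) were alternatives. The script was tested on simulated data. Deviations from the group means correlated at 0.457, 0.809 and 0.737 across genes for same-numbered libraries, and at most 0.00677 otherwise. Deviations within a genotype cancel for each gene, so the low values otherwise follow in part from the high ones. Numbers were taken to pair libraries from these same counts, a pairing the labels do not state. Values of the 9 tested factors are given with and without the block. Coordinates and exon lengths are from GENCODE M21 on the same build.

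Members and lists were chosen with earlier results of these data known. All 10 factors are named; of each other list, called genes (up to 4, markers up to 2) or, where none was called, the 2 of highest mean. Further adipocyte and fibroblast marker genes named by this rule are given under the other observations; 1 marker gene is not reported here.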

Additional observations from a re-analysis of the deposited data

How the results depend on the processing

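All 19 alternatives called 0 of the tested factors. Over the 171 values of log2 fold change, 161 did not change sign after rounding to 2 decimals, 10 reversed and 0 passed the threshold, with adjusted p from 0.0886 upward. Those 161 include 0.00 for Tbx15 with the replicate block and no TMM factors and 0.00 for Snai2 without wild-type library 2. Twist1, Twist2 and Tbx18 kept their direction in all 19 and Snai2 in all but that value, with Twist1 from -0.42 to -0.16, Twist2 from -0.29 to -0.16 and Snai2 from 0.00 to 0.25. Leaving out 1 library gave ranges of -0.25 to 0.02 for Prrx1, -0.21 to 0.16 for Tbx15, -0.32 to 0.21 for Snai1, -0.19 to 0.07 for Zeb1 and -0.17 to 0.08 for Zeb2. The positive ends came without wild-type library 3 (Prrx1, Zeb1, Zeb2), 1 (Tbx15) or 2 (Snai1), and without Sharpin-cpdm library 2 the values were 0.09 for Tbx15, 0.05 for Zeb1 and 0.02 for Zeb2. Leaving out both libraries of a number in the replicate block gave 0.11 for Tbx15 (number 1) and 0.01 for Snai1 (number 2). The cause was not tested.

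Of all tested genes, 0 were called without the block, 0 by limma-voom, 10 by DESeq2 and 337 with the replicate block. The blocked count was 653, 128 and 44 without numbers 1, 2 and 3, and, in alternatives chosen after seeing the data, 502 with no filter, 336 with median ratio size factors and 365 with no TMM factors. Low counts kept Tcf21 out of the test.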

Other observations

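Other marker lists were measured in the same libraries, and values are log2 fold changes ± SE from edgeR with the replicate block. Of 5 tested adipocyte markers 2 fell and 0 rose, where 2.11% of all tested genes fell and 0.394% rose. The 2 were Fabp4 (-0.93 ± 0.06, adjusted p 0.00488) and Lpl (-0.87 ± 0.12, adjusted p 0.0256). Pparg, Cebpa and Cd36, the rest of those tested, were not called, at -0.44 ± 0.23, 0.02 ± 0.07 and -0.34 ± 0.11. Adipoq, Plin1 and Cidec reached at most 0.201, 0.0669 and 0.211 CPM, and Lep and Retn were at 0 in every library. The blocked adipocyte count was 2, 2 and 1 without the libraries numbered 1, 2 and 3. Of 18 fibroblast markers 7 fell and 0 rose, a count of 9, 4 and 5 without those numbers, with Cd34 at -0.92 ± 0.07 and Lum at -0.71 ± 0.07 and adjusted p of 0.00598 and 0.00839. Of 15 tested myeloid markers edgeR called 0 with the block, 2 having an unadjusted p under 0.05; Lyz2 stood at 263 and 295 CPM in the libraries numbered 2 and at 46.3 to 158 CPM in the others. Itgam, the other myeloid gene named, averaged 18.7 ± 9.15 CPM for the mutant and 16.9 ± 9.96 CPM for the wild type. Tek and Cldn5, the endothelial markers of lowest adjusted p, stood at -0.81 ± 0.07 and -1.01 ± 0.09 (blocked edgeR adjusted p 0.00598 and 0.00617). Abcc9 and Notch3, the mural markers of lowest adjusted p, stood at -0.59 ± 0.08 and -0.45 ± 0.07 (blocked edgeR adjusted p 0.0216 and 0.0272). Without the block 0 of these were called.

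Outside the lists' calls, Tbx5, a T-box factor, stood at a log2 fold change of -1.14 ± 0.22 and Foxc2, a forkhead factor, at 0.81 ± 0.15 with the block, and edgeR gave adjusted p 0.0566 and 0.0502; both were chosen after their values were seen.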
